A study of Mus musculus with 7 samples.

Results

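Genes of bone-forming cells (Runx2, Sp7, Alpl, Phex, Ibsp, Spp1, Dmp1, Bglap and Bglap2) were followed through RNA sequencing of the mouse olfactory epithelium, which lines part of the nasal cavity and senses odours. These 9 were chosen by symbol, as genes of the osteoblasts and osteocytes of the turbinate bone under the lining. The choice was made with earlier results of these data known. All 9 were found among 50600 genes in the count table. Each had at least 18 counts in every library, the lowest being Bglap2 in neo replicate 3. Whole olfactory epithelium was dissected from mice at postnatal day 7. The 7 libraries comprised 3 from Amigo1neo/neo mice (neo), in which a neomycin selection cassette replaces the Amigo1 coding region, 3 from Amigo1-/- mice (KO), and 1 from a wild-type Amigo1+/+ mouse (WT). The labels name no treatment for any group and do not say how the KO allele was made. The comparison of neo with KO asks whether the cassette itself goes with altered expression, since both genotypes lack Amigo1.

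Osteoblasts lay down the collagen matrix of bone and then mineralise it, and those that become buried in the matrix turn into osteocytes. RUNX2 starts this lineage and SP7 acts after it. The enzyme ALPL and the acidic matrix proteins IBSP and SPP1 belong to matrix deposition and mineralisation, osteocalcin (the product of Bglap and Bglap2) marks mature osteoblasts, and PHEX and DMP1 are typical of late osteoblasts and osteocytes, where both restrain release of the phosphate hormone FGF23. The olfactory epithelium itself is not a bone tissue, but it lies on thin turbinate bones, and a dissection of the lining can take bone along.

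Gene counts totalled 14879415 to 21343058 per library, with the lowest total in neo replicate 3. Amigo1 had 11, 5 and 1 counts in neo replicates 1 to 3, 0, 8 and 16 counts in KO replicates 1 to 3 (the 0 allows up to 3 counts) and 744 counts in WT. Several libraries stood apart in genes of neighbouring tissue. Neo replicate 1 held 1071 CPM (counts scaled to library size) summed over 7 skeletal muscle genes, against 4.11 to 20.8 CPM in the other 6 libraries. The enamel gene Ambn was at 27.7, 28.3 and 154 CPM in neo, at 1.45, 14.5 and 6.90 CPM in KO and at 1.06 CPM in WT. Neo replicate 3 and KO replicate 3 had 152 and 122 CPM of the neutrophil gene S100a9, against 11.7 to 22.7 CPM elsewhere. The X-inactivation gene Xist stood at 1145 CPM in neo replicate 1 and 643 CPM in WT, and at no more than 4.21 CPM in the other 5 libraries. The Y-linked gene Uty had 0 counts in neo replicate 1 and in WT, and 382 to 726 counts in the other 5. By these genes neo replicate 1 and WT were female in type, and the other 5 libraries, with every KO among them, were male in type. The neo samples carry a different code and date-like number in their names from those of KO and WT, so anything those stand for cannot be told apart from the neo genotype.

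All 9 genes had lower fitted levels in neo than in KO, as did 50.4% of all genes, and none passed adjusted p 0.05 (edgeR, adjusted over 17638 genes, of which 0.0170% were called in either direction and 0.0113% as lower in neo). Their median log2 fold change, neo over KO, was -1.36, against -0.00 over all genes tested. At an unadjusted p under 0.05, 7 of the 9 were lower in neo, against 4.72% of all genes. Because the 9 were chosen with earlier results of these data known, such shares describe them and are not independent support. The same 7 (all but Runx2 and Bglap2) were lower in every neo library than in every KO library, against 7.69% of all genes. DESeq2 called 1 of the 9, Bglap (adjusted p = 0.00484), against 0.333% of genes called lower in neo, and limma on gene TPM called none and put 6 lower at an unadjusted p under 0.05, against 1.46% of genes. In the authors' deposited table Bglap was likewise the single member called, with a log2 fold change of 1.92, KO over neo (SE 0.42, adjusted p = 0.00399, DESeq2), and 0.288% of its genes were lower in neo at that threshold. The labels do not say how samples relate to animals and litters, so these p-values measure the spread between the samples, which may in part be technical. In such bulk RNA, fewer bone cells and less RNA per bone cell cannot be told apart.

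**Figure D1:**
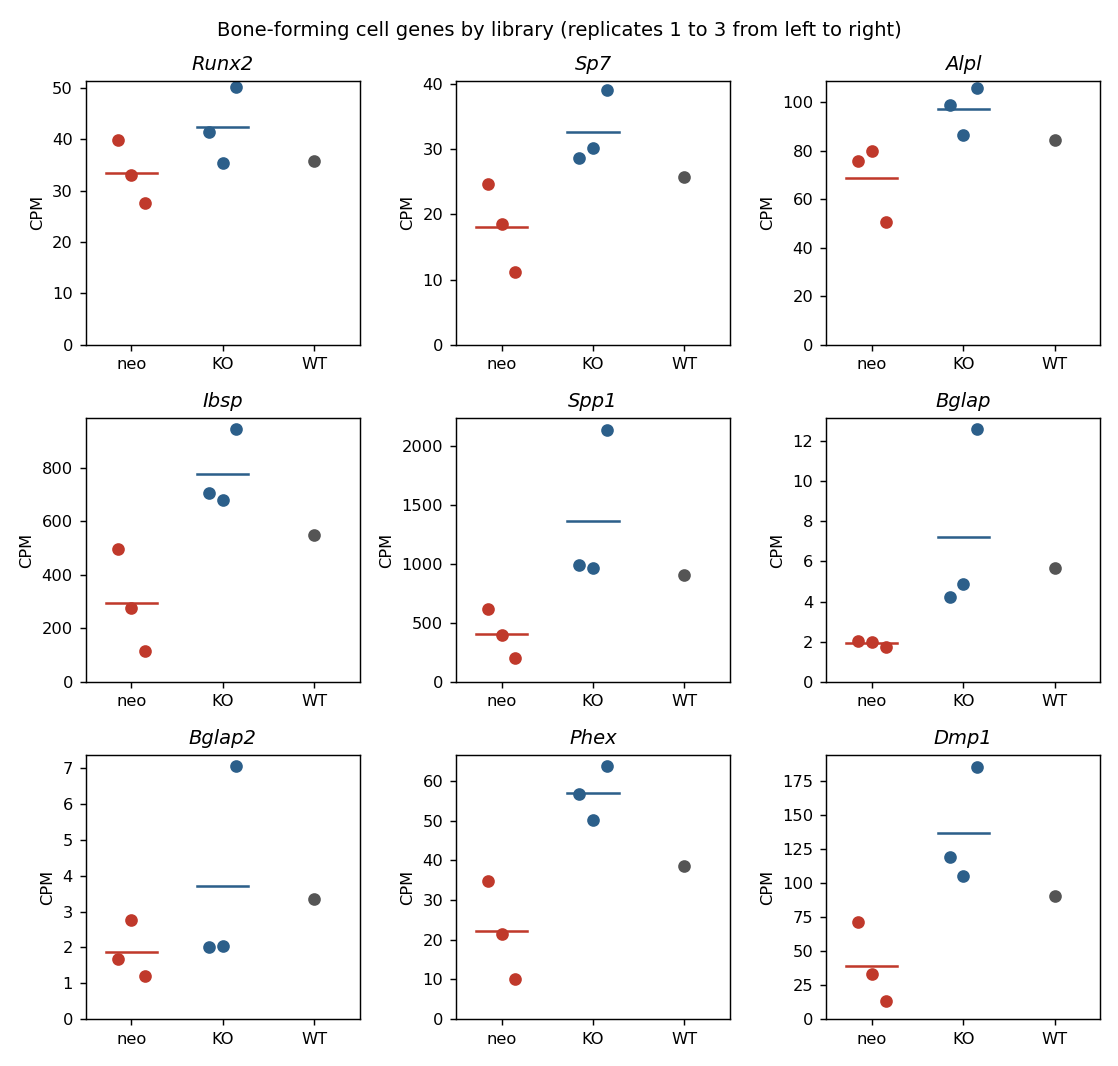
Level of each bone-forming cell gene in CPM (vertical axis, from 0) in the 3 neo, 3 KO and 1 WT libraries; points are libraries and horizontal lines are group means. In 7 genes the 3 neo points lie below the 3 KO points, and in all 9 the lowest point is neo replicate 3 and the highest is KO replicate 3.

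Of the transcription factors, Runx2 had the smallest fitted difference of the 9 genes and Sp7 a larger one. Runx2 (GRCm38 chromosome 17, 44495987 to 44814797, minus strand), the factor that commits cells to the osteoblast lineage, was at 39.9, 33.0 and 27.5 CPM in neo replicates 1 to 3, at 41.5, 35.4 and 50.2 CPM in KO replicates 1 to 3 and at 35.7 CPM in WT. The neo and KO values overlapped, since neo replicate 1 lay above KO replicate 2. Means were 33.4 ± 6.21 CPM in neo and 42.4 ± 7.42 CPM in KO (SD, n = 3 each), and the log2 fold change was -0.34 (SE 0.17, adjusted p = 0.571, edgeR). Sp7 (chromosome 15, 102356609 to 102366325 in the count table, minus strand), which encodes osterix and is needed for osteoblasts to form after Runx2 has acted, was at 24.7, 18.5 and 11.1 CPM in neo, at 28.7, 30.2 and 39.1 CPM in KO and at 25.7 CPM in WT. All neo values lay below all KO values in CPM. The log2 fold change was -0.85 (SE 0.27, adjusted p = 0.496, edgeR).

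Alpl and Phex encode cell-surface enzymes of mineralisation. Alpl (chromosome 4, 137741733 to 137796384, minus strand), the alkaline phosphatase that breaks down pyrophosphate, was at 75.7, 79.7 and 50.7 CPM in neo, at 98.8, 86.6 and 106 CPM in KO and at 84.4 CPM in WT. The groups did not overlap, but neo replicate 2 and KO replicate 2 were close. Its log2 fold change was -0.50 (SE 0.17, adjusted p = 0.496, edgeR). Phex (chromosome X, 157162075 to 157415312, minus strand), an endopeptidase whose loss causes X-linked hypophosphataemia in humans and mice, was at 34.8, 21.4 and 10.02 CPM in neo, at 56.7, 50.2 and 63.8 CPM in KO and at 38.6 CPM in WT. Its neo values were widely spread, and the highest of them lay below the lowest KO value. Means were 22.1 ± 12.4 CPM in neo and 56.9 ± 6.83 CPM in KO (SD, n = 3 each), with a log2 fold change of -1.36 (SE 0.43, adjusted p = 0.498, edgeR). Phex is X-linked and the libraries differed in Xist as given above, and the part of this in its level was not tested.

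The 3 acidic matrix phosphoproteins Dmp1, Ibsp and Spp1 lie in one cluster on chromosome 5, plus strand, with 238 kb between the start of Dmp1 and the end of Spp1. Dmp1 (104202613 to 104214102), a mineral-binding protein of osteocytes, was at 71.1, 32.9 and 13.1 CPM in neo, at 119, 105 and 185 CPM in KO and at 90.6 CPM in WT. Even neo replicate 1, the highest of its group, was below WT and below every KO library. Means were 39.0 ± 29.5 CPM in neo and 136 ± 43.0 CPM in KO (SD, n = 3 each), and the log2 fold change was -1.79 (SE 0.68, adjusted p = 0.535, edgeR). Spp1 (104435118 to 104441050), osteopontin, which is also made by macrophages and other cells, was at 619, 394 and 199 CPM in neo, at 990, 968 and 2143 CPM in KO and at 905 CPM in WT. KO replicates 1 and 2 were near WT, and KO replicate 3 was well above all of them. The log2 fold change was -1.76 (SE 0.54, adjusted p = 0.498, edgeR). Ibsp (104299171 to 104311469), bone sialoprotein, which nucleates mineral, was at 497, 275 and 117 CPM in neo, at 707, 681 and 945 CPM in KO and at 549 CPM in WT. Neo replicate 1 was close to WT while neo replicate 3 held the lowest level. Means were 296 ± 191 CPM in neo and 778 ± 145 CPM in KO (SD, n = 3 each), and the log2 fold change was -1.39 (SE 0.54, adjusted p = 0.535, edgeR).

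The osteocalcin genes Bglap (chromosome 3, 88383501 to 88384464) and Bglap2 (88377736 to 88378699), both on the minus strand and 4.801 kb apart, are near copies. Of the stretches of 50 bases in the Bglap transcript, 74.7% are also in Bglap2. Of those in the Bglap2 transcript, 69.2% are also in Bglap, and 88.2% are in another gene when all genes are searched. Bglap2 thus has the smaller share of stretches found in no other gene. Both are at least 19.8 Mb from Amigo1 on the same chromosome. Bglap had 48, 33 and 26 counts (2.04, 1.98 and 1.73 CPM) in neo replicates 1 to 3, 70, 90 and 229 counts (4.24, 4.86 and 12.6 CPM) in KO replicates 1 to 3, and 123 counts (5.65 CPM) in WT. It is the member with the narrowest spread in neo, 1.92 ± 0.169 CPM against 7.25 ± 4.68 CPM in KO (SD, n = 3 each), and its log2 fold change was -1.91 (SE 0.43, adjusted p = 0.384, edgeR). That was the largest of the 9 in this fit. Without KO replicate 3 Bglap was at -1.24, behind Dmp1 (-1.51), Spp1 (-1.28) and Phex (-1.27). With limma on log2(TPM + 0.1) it was at -1.49, behind Dmp1 (-1.98), Spp1 (-1.70), Phex (-1.52) and Ibsp (-1.51). Bglap2 had 39, 46 and 18 counts (1.66, 2.76 and 1.19 CPM) in neo, 33, 38 and 128 counts (1.999, 2.05 and 7.07 CPM) in KO and 73 counts (3.35 CPM) in WT. Its groups overlapped, with KO replicates 1 and 2 within the range of neo, and its log2 fold change was -0.99 (SE 0.56, adjusted p = 0.636, edgeR).

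Reads that fit more than one gene were kept out of the gene counts, so both osteocalcin genes can be undercounted there. The deposited TPM, which shares such reads between genes, was much higher for them: the ratio of CPM per kilobase to TPM had a median of 0.127 for Bglap and 0.125 for Bglap2, against 0.504 to 0.714 for the other members. In TPM, Bglap was at 51.8, 35.5 and 31.5 in neo, at 63.2, 90.9 and 224 in KO and at 100 in WT. Bglap2 was at 36.7, 41.6 and 23.3 TPM in neo, at 27.5, 34.8 and 117 TPM in KO and at 58.4 TPM in WT. Bglap thus kept its groups apart on this scale, and those of Bglap2 overlapped again. How RSEM shared the reads between the copies decides these values, and the split between them is uncertain. With the 2 genes counted as 1 feature, a combination chosen after seeing the data, the log2 fold change was -1.53 (adjusted p = 0.493, edgeR).

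**Figure D2:**
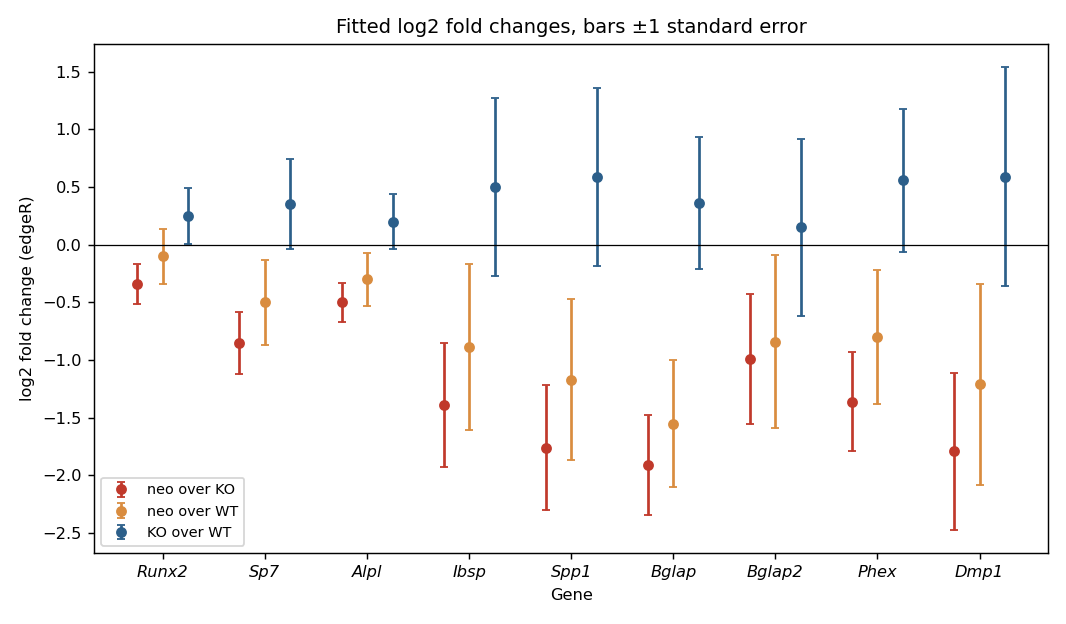
Fitted log2 fold changes of the 9 genes (vertical axis) for neo over KO, neo over WT and KO over WT, with bars of 1 standard error each way. All neo over KO points lie below 0, all KO over WT points lie above 0, and the bars of the comparisons with the single WT library are wider.

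The promoters of the 4 members with the largest fitted differences between neo and KO in edgeR, Bglap, Dmp1, Spp1 and Ibsp, are shown because all are active in osteoblasts and because RUNX2, whose own gene is a member, binds the core letters TGTGGT. Each runs 5′ to 3′ on the strand of the gene, from 250 bases before to 50 after the transcription start (RefSeq, GRCm38.p6), and capitals mark ACCACA, the core read on the opposite strand. Both strands were searched and the 6 letters overlap no other motif sought. Positions count from the transcription start.
Bglap (chr3:88384417-88384716, minus strand): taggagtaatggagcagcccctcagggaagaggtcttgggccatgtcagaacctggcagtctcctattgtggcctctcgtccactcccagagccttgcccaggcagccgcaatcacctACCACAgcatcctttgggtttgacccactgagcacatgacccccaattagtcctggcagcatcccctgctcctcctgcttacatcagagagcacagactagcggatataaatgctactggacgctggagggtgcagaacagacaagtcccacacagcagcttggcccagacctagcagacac
Dmp1 (chr5:104202367-104202666, plus strand): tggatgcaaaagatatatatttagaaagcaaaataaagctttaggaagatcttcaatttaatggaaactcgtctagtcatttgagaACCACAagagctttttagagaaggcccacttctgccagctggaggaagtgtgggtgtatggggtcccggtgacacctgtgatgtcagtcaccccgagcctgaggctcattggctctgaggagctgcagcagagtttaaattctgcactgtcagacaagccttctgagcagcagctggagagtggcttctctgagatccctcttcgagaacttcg
Spp1 (chr5:104434861-104435160, plus strand): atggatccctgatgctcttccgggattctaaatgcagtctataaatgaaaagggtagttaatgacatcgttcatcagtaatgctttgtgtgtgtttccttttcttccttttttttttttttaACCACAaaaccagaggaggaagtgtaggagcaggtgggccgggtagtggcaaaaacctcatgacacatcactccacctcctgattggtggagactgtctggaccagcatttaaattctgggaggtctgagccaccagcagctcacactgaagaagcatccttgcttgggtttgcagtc
Ibsp (chr5:104299037-104299336, plus strand): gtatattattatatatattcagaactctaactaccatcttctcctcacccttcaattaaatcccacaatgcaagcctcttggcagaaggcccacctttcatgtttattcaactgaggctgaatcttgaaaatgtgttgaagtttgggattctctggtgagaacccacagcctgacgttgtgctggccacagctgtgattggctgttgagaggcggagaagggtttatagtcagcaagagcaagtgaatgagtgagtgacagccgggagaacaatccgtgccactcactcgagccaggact
The core lies at -132 in Bglap, -164 in Dmp1 and -128 in Spp1, and these letters are not in the Ibsp window. The RefSeq start used for Ibsp lies 116 bases inside the gene from its GENCODE start, so its window reaches less far upstream of the latter. For Bglap, Dmp1 and Spp1 the RefSeq and GENCODE starts are 2, 4 and 7 bases apart. Of the 9 members, 7 matched the promoter table (Bglap2 and Sp7 did not), and 4 of the 7 held the core, the fourth being Runx2 itself with matches at -80, 23 and 31. Of 32817 promoters of the same length, 16.8% held it. A match of letters is a description and not a binding site.

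Per unit of transcript length, Spp1 and Ibsp were the most abundant members in every library. Spp1 was at 790, 376 and 221 TPM in neo, at 1005, 1024 and 2191 TPM in KO and at 1002 TPM in WT. Ibsp was at 415, 174 and 86.5 TPM in neo, at 474, 475 and 638 TPM in KO and at 400 TPM in WT. The regulators were far below these, with Runx2 at 8.10 to 13.1 TPM in neo, at 9.94 to 12.7 TPM in KO and within the KO range in WT, and Sp7 at 5.75 to 14.4 TPM in neo, 13.6 to 18.1 TPM in KO and 13.2 TPM in WT. Phex ranged between 2.98 and 20.2 TPM and Alpl between 30.7 and 58.3 TPM over the 7 libraries. On the TPM scale 5 members kept neo below KO without overlap, against 2.20% of genes tested in TPM, and Sp7 and Alpl, which were apart in CPM, overlapped. Limma on TPM moved the median of all genes by 0.10 (log2), and the members' median was -1.49 on that scale.

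The 9 genes together took 0.152, 0.0795 and 0.0437% of gene counts in neo replicates 1 to 3, 0.199, 0.196 and 0.344% in KO replicates 1 to 3, and 0.177% in WT. The widest Wilson 95% interval, for counting error only, ran between 0.342 and 0.347% in KO replicate 3. Spp1 and Ibsp held 73.3 to 86.9% of these counts, so the sum mainly follows them.

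Dividing each TPM by that of Runx2 in the same library sets the later genes against the lineage factor. Dmp1 stood at 3.31, 1.86 and 0.818 times Runx2 in neo, at 5.83, 4.70 and 7.19 times in KO and at 4.85 times in WT. Ibsp stood at 31.7, 21.5 and 10.2 times in neo, at 47.7, 42.1 and 50.2 times in KO and at 40.01 times in WT. Spp1 stood at 60.4, 46.4 and 26.2 times in neo, at 101, 90.8 and 173 times in KO and at 100 times in WT. In each of these 3 genes the ratio was lower in every neo library than in KO and WT, and lowest in neo replicate 3. Bglap stood at 3.96, 4.38 and 3.72 times Runx2 in neo, at 6.36, 8.06 and 17.7 times in KO and at 10.01 times in WT. Sp7 stood at 1.099, 1.001 and 0.680 times in neo, at 1.37, 1.31 and 1.43 times in KO and at 1.32 times in WT. Phex, at 0.352 to 1.04 times in neo, 1.32 to 1.96 times in KO and 1.24 times in WT, was likewise lower throughout neo. The Alpl ratio, 3.62 to 5.03 times in neo, 4.38 to 5.51 times in KO and 5.04 times in WT, overlapped between neo and KO, as did that of Bglap2. Thus 6 of the 8 ratios were lower in neo without overlap, against 0.862% of genes tested in TPM. Of these 6, all but Sp7 were already apart in TPM itself, so the ratios largely repeat those levels. No test of these ratios was run.

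**Figure D3:**
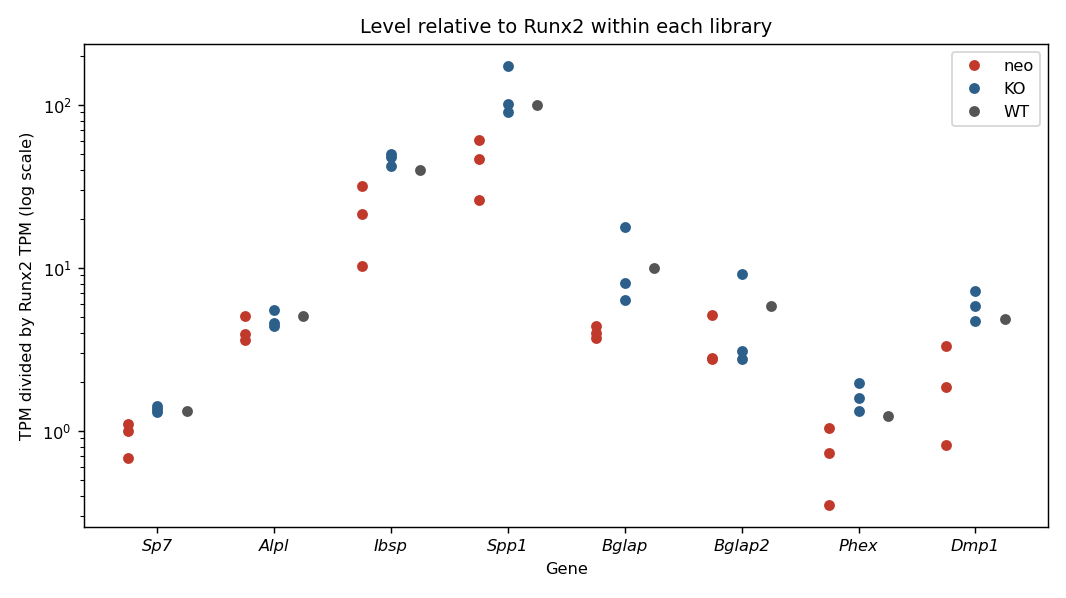
TPM of 8 members divided by the TPM of Runx2 in the same library (log scale), for neo, KO and WT libraries. Sp7, Ibsp, Spp1, Bglap, Phex and Dmp1 have all 3 neo points below the 3 KO points, whereas Alpl and Bglap2 overlap.

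The single WT library lay between the mutants for most members. Every neo library was below WT in 8 of the 9 genes, all but Runx2, against 21.5% of genes. Every KO library was above WT in 6 genes, Ibsp, Sp7, Alpl, Spp1, Phex and Dmp1, against 19.6% of genes, and these 6 showed both, against 1.90% of genes. No member passed adjusted p 0.05 against WT in edgeR, where 0.0105% of 19123 genes were called for neo and 0.00523% for KO. The largest log2 fold change of neo over WT was that of Bglap, -1.55 (SE 0.55, adjusted p = 1, edgeR), the one member under an unadjusted p of 0.05 against WT (2.97% of genes for neo, 0.727% for KO), and that of KO over WT was 0.59 for both Spp1 and Dmp1. Bglap and Bglap2 were lower in KO replicates 1 and 2 than in WT and higher in KO replicate 3, so their log2 fold changes of 0.36 and 0.15, KO over WT, rest on KO replicate 3. Without it they were -0.31 and -0.72. These comparisons take the spread of neo and KO for WT, which has no replicate. WT was also female in type and every KO library male in type, by Xist and Uty. Sex and genotype therefore cannot be told apart in KO over WT.

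At the transcript level 16 of the 37 listed transcripts of the members had a mean TPM of at least 0.5. None passed adjusted p 0.05 among 44981 transcripts (limma, where 0% were called), and 7 were lower in neo at an unadjusted p under 0.05, against 1.35% of transcripts. The shares of a gene's TPM by transcript were steady for Spp1, in which Spp1-201 held 92.9 to 95.9%, and for Alpl, in which Alpl-201 held 97.3 to 100%. The main transcript of Runx2, Runx2-202, held 65.5 to 84.2%. Runx2-205 was listed at 0.790, 0.820 and 1.52 TPM in neo, at 0, 2.34 and 0 TPM in KO and at 0.420 TPM in WT, which places KO replicate 2 above all others. Phex was split over 3 transcripts. Phex-201, the full-length form, held 27.6 to 55.7% and its log2 fold change was -1.20 (SE 0.44, adjusted p = 0.865, limma). That of Phex-202, a short form at the same 3′ end, was -1.52 (SE 0.55), and the difference between the forms was not tested.

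Many other genes of bone formation also had lower fitted levels in neo than in KO, though none passed adjusted p 0.05 in edgeR. They come from lists drawn up with earlier results of these data known. Of 11 bone matrix genes, 7 were lower at an unadjusted p under 0.05 and none higher, and their median log2 fold change was -0.77. Over all genes tested, 4.72% were lower at that level, 4.59% were higher and 50.4% had negative log2 fold changes. Col1a2, a chain of type I collagen, was at 2877, 2497 and 1451 CPM in neo, at 4840, 3930 and 5882 CPM in KO and at 4057 CPM in WT (log2 fold change -1.11, SE 0.26, adjusted p = 0.384, edgeR). Sparc, the matrix protein osteonectin, was at 1411, 1307 and 873 CPM in neo, at 1969, 1833 and 2654 CPM in KO and at 1696 CPM in WT (log2 fold change -0.85). The groups did not overlap in either gene. The adjusted p of DESeq2 was 0.00131 for Col1a2, 0.00758 for Sparc and 0.0153 for Col5a2, a fibrillar collagen with a log2 fold change of -0.64. Bglap3, the third gene of the osteocalcin cluster, which is expressed mainly outside bone, differed from its neighbours: it was at 8.65, 81.2 and 45.5 CPM in neo, at 60.8, 53.0 and 39.0 CPM in KO and at 44.9 CPM in WT, low only in neo replicate 1.

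Of 10 genes for collagen modification and secretion, 7 were lower in neo at that unadjusted level, against 4.72% of all genes. All 10 were negative, against 50.4% of all genes, with a smaller median of -0.34. Among them were Creb3l1, a transcription factor for collagen secretion (log2 fold change -0.66), the prolyl isomerase Fkbp10 (-0.56) and the collagen chaperone Serpinh1 (-0.33). Of 6 mineralisation genes tested 3 were lower, namely Enpp1, which makes pyrophosphate (-0.61), the sphingomyelinase Smpd3 (-0.78) and Ank, which exports pyrophosphate (-0.33), with a median of -0.26. The 10 osteoblast regulators had a median of -0.18, with Atf4 at -0.24 and Cbfb, the partner of RUNX2, at -0.17. The 11 Wnt and BMP genes had a median of -0.08, 3 of them lower, led by the Wnt inhibitor Wif1 at 26.7, 26.4 and 19.3 CPM in neo, 45.3, 38.4 and 58.0 CPM in KO and 35.3 CPM in WT (log2 fold change -0.97, adjusted p = 0.340 in edgeR and 0.00105 in DESeq2). Bmp3, a growth factor made by bone cells, was at -0.67 and the Wnt-inactivating enzyme Notum at -0.53. The regulators and pathway genes thus sat nearer to the median of all genes than the matrix genes did, a difference between lists that was not tested.

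Of the other osteocyte genes, Mepe, Sost and Dkk1 were at 6.62 CPM or less in every library. Mepe, a matrix protein of osteocytes that lies between Ibsp and Spp1 on chromosome 5, was at 0.852, 0.661 and 0.398 CPM in neo, at 2.42, 1.94 and 3.70 CPM in KO and at 2.02 CPM in WT. Its groups did not overlap, and its log2 fold change was -2.03 (SE 0.38, adjusted p = 0.340, edgeR, and 0.0131 in DESeq2). Sost, which encodes the Wnt inhibitor sclerostin, was at 1.41, 0.601 and 0.265 CPM in neo, at 1.27, 2.48 and 0.552 CPM in KO and at 1.1 CPM in WT, with overlap and a log2 fold change of -0.84. Dkk1, another Wnt inhibitor, was at -1.15. Pdpn, which early osteocytes share with other cell types, was higher, at 38.1, 36.8 and 46.0 CPM in neo, at 31.4, 34.1 and 65.9 CPM in KO and at 34.5 CPM in WT, with overlap and a log2 fold change of -0.12. Fgf23, the hormone that Phex and Dmp1 restrain, had 2 to 12 counts in each library and was below the count filter for neo and KO. Over the 4 osteocyte genes tested the median was -1.0, with 2 lower at an unadjusted p under 0.05, against 4.72% of all genes.

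Genes of osteoclasts, the bone-resorbing cells, also had lower fitted levels in neo than in KO. All 12 tested had negative log2 fold changes, against 50.4% of all genes, with a median of -0.87. Of the 12, 8 were lower at an unadjusted p under 0.05, against 4.72% of all genes. Their sum was 657, 457 and 380 CPM in neo, 828, 792 and 1502 CPM in KO and 756 CPM in WT, the same order of libraries at both ends as in the members. The proteinase gene Mmp9 was at 152, 93.3 and 94.9 CPM in neo, at 197, 185 and 348 CPM in KO and at 157 CPM in WT (log2 fold change -1.1, adjusted p = 0.486 in edgeR and 0.00684 in DESeq2). The fusion gene Dcstamp was at -1.42 and the proton pump subunit gene Atp6v0d2 at -0.84. Of the ligands that control osteoclasts, Tnfsf11 (RANKL) was at -0.96, its decoy receptor Tnfrsf11b at -0.74 and Csf1 at -0.25, of which Tnfrsf11b alone was under an unadjusted p of 0.05.

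Lists of other tissues are given for comparison. The 14 cartilage genes tested had a median of -0.00. At an unadjusted p under 0.05, 3 were lower and 4 higher, against 4.72% and 4.59% of all genes. Among the higher ones were Col9a1 (log2 fold change 0.42), Cnmd (1.18) and Epyc (0.67). The 3 lower ones were Col11a2 (-1.09), Ihh (-1.33) and Col11a1 (-0.47). Of 9 fibroblast and periosteum genes none was under that level and the median was -0.18, and of 6 endothelial genes none was and the median was -0.00. Macrophage genes had a median of 0.47, with 5 of 8 higher at that level, among them Aif1 (1.01) and Adgre1 (0.78), and 1 lower, Cd68 (-0.72), which osteoclasts also express. Mature olfactory neuron genes had a median of 0.25, all 10 positive and 3 higher. Tooth genes had a median of 3.10 over 5 tested, and their sum was 84.3, 293 and 530 CPM in neo, 283, 326 and 244 CPM in KO and 196 CPM in WT. That sum does not follow the median, because Odam made up most of it outside neo replicates 1 and 3, at 1.36, 213 and 117 CPM in neo, 279, 283 and 226 CPM in KO and 191 CPM in WT (log2 fold change -1.26). Muscle genes had a median of 5.06 that came from neo replicate 1. The part of dissection, or of any of these other tissues, in the members' levels was not tested.

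**Figure D4:**
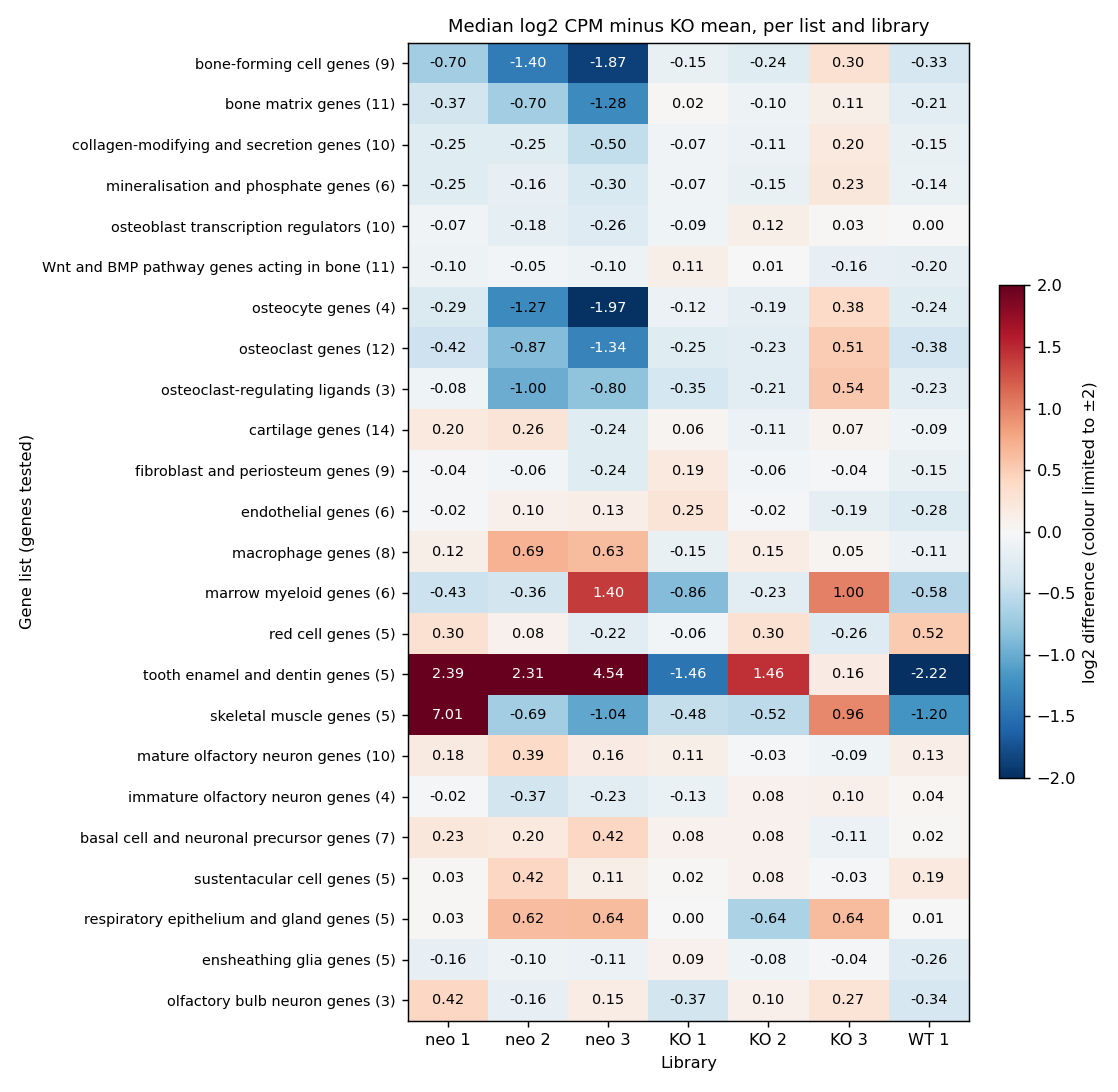
Median over each gene list of the log2 CPM minus the KO mean of the same gene, for each library (columns, neo, KO, WT) and list (down the page, number of genes tested in brackets); blue is lower and red higher. The bone-forming, osteocyte and osteoclast lists are lowest in neo replicate 3, at -1.87, -1.97 and -1.34. The cartilage and fibroblast lists are also lowest there, both at -0.24, but lie between -0.24 and 0.26 in all 7 libraries.

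Over the 7 libraries the members had one common order at the ends, with neo replicate 3 lowest and KO replicate 3 highest in all 9, against 2.91% of genes. The median difference of the members from the KO mean was -0.70, -1.40 and -1.87 (log2) in neo replicates 1 to 3, -0.15, -0.24 and 0.30 in KO replicates 1 to 3, and -0.33 in WT. By this median neo spread more widely than KO, whereas Bglap and Bglap2 spread more widely in KO. Likeness to the members' mean profile was measured as the root mean square difference in centred log2 CPM over the 7 libraries among 14922 other genes with a mean of at least 1 CPM. The 6 most alike were Ctsk (0.125), Col11a2 (0.131), Cgref1 (0.133), Col1a2 (0.145), Col1a1 (0.158) and Gpx3 (0.166). Ctsk is an osteoclast proteinase gene, Col11a2 a fibrillar collagen gene of the cartilage list and Gpx3 a secreted peroxidase gene. Ctsk was at 227, 145 and 101 CPM in neo, at 299, 274 and 566 CPM in KO and at 267 CPM in WT, so it shared both ends of the order.

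Single libraries decided how many members were under an unadjusted p of 0.05. All 9 log2 fold changes stayed negative when any 1 of the 6 libraries was left out, and no member passed adjusted p 0.05 in edgeR in those fits. Leaving out neo replicate 2 turned the 7 members into 2 (3.69% of all genes being lower at that level), while the number was 2 with KO replicate 3 left out (4.64%), 4 with KO replicate 1 left out (3.56%) and 8 with neo replicate 1 left out (7.83%). The members' median was -1.85 with neo replicate 1 left out and -1.01 with neo replicate 3 left out. Without neo replicate 3 and KO replicate 3 together, a choice made after seeing the data, 8 of 9 were negative, 6 were under that level (2.35% of all genes) and the median was -0.85. Bglap2 depended most on one library, with a log2 fold change of -0.12 without KO replicate 3.

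**Figure D5:**
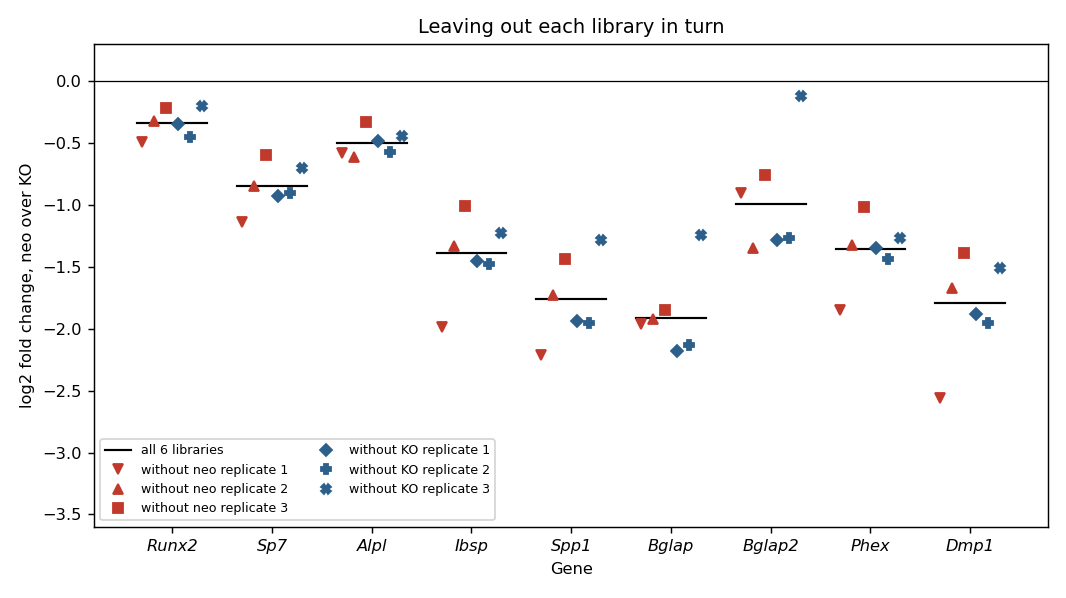
Log2 fold change of each member, neo over KO (vertical axis), with all 6 libraries (black line) and with each library left out in turn (symbols). All points lie below 0, and leaving out neo replicate 1 gives the most negative value for Runx2, Sp7, Ibsp, Spp1, Phex and Dmp1.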

How the data were processed

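Total RNA was poly(A)-captured and sequenced, per the labels' protocols, and groups and replicate numbers came from the sample titles. The authors deposited whole-number counts per gene, counted by strand per the name of the table, and the submitters' processing notes name Trimmomatic 0.35, STAR 2.5.1b, RSEM, GRCm38 and DESeq2 1.18.1. Reads in the multimapping row, 14.5 to 19.6% per library, were outside the gene rows. The authors' TPM per gene and per transcript came from RSEM, per the file headers. The authors' table of KO against neo held deposited log2 fold changes, p-values and adjusted p-values, a standard error used here as a score, and a normalised signal that is a constant multiple of the counts in each library.

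Counts were tested with edgeR 4.0.16 in R 4.3.3 (TMM, filterByExpr with a minimum count of 10 and total of 15, robust quasi-likelihood, Benjamini-Hochberg adjustment over all genes, 0.05, two-sided). Neo against KO used 6 libraries and comparisons with WT used all 7. CPM are counts scaled by TMM over the 7 libraries. TPM were tested with limma 3.58.1 on log2(TPM + 0.1), transcripts being kept where their TPM averaged 0.5 or more, and fold changes on that scale understate changes of low genes. DESeq2 1.42.0 and the settings named in the closing section were alternatives. The tests were tried on simulated counts with known changes first. The closest pair of libraries still differed beyond counting noise (chi-square over its degrees of freedom 9.58), and every library entered as 1 sample. Near copies were measured on GENCODE vM21 transcripts, and promoters came from RefSeq GRCm38.p6.

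The 9 members and the gene lists were chosen with earlier results of these data known. Genes named from a list were those past the threshold or, with none, the 3 (bone lists) or 2 (other lists) with the smallest p, together with the 6 genes most like the members. Bglap3, Fgf23, Pdpn, Cd68, Odam, S100a9, Amigo1, Ihh, Col11a1 and the DESeq2 values were added after their values were seen. Genes below the count filter stayed in the list sums and out of the list medians. Some genes that the rule names are not reported here. FPKM tables were not used here.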

Additional observations from a re-analysis of the deposited data

How the results depend on the processing

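No member lost a call, since none was made, and all 9 log2 fold changes of neo over KO stayed negative under RLE size factors, library totals alone, no count filter, DESeq2, limma on TPM, all 7 libraries in 1 fit, the replicate block and leaving out any 1 library. A filter of 50 counts in 3 libraries left 8 members, all negative. With DESeq2 1 member, Bglap, was called. Genes called between neo and KO, 3 in the report, were 40 with no count filter, 1 with the filter of 50 counts, 98 with DESeq2, 1 with limma at either pseudocount, 0 without neo replicate 3 and KO replicate 3 together (864 at an unadjusted p under 0.05, edgeR), and 1 to 17 when a library was left out, the 17 without neo replicate 1. Genes called between neo and WT, 2 in the report, were 7 with no filter, 17 with limma on log2(TPM + 1) and 2 to 6 when a library was left out. Those between KO and WT, 1 in the report, were 2 with no filter, 15 with limma on log2(TPM + 1), 6 with the 2 groups alone and 1 to 4 when a library was left out. Transcripts called, 0 in the report, were 1 with a pseudocount of 1 and 0 to 2 when a library was left out. The cause was not tested.

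Some directions turned. Bglap2 was at 0.11 (neo over KO) without neo replicate 3 and KO replicate 3, and at -0.28 and -0.27 (KO over WT) with limma at the 2 pseudocounts. The other turns came from leaving out a library. For KO over WT the range over libraries left out was -0.72 to 0.44 for Bglap2 and -0.31 to 0.63 for Bglap, both lowest without KO replicate 3. For neo over WT it was -0.23 to 0.02 for Runx2, highest without neo replicate 3. For neo over KO, Csf1 was at 0.09 and 0.08 with limma and between -0.37 and 0.03 over libraries left out. The muscle gene Mylpf, at 4.35 with all libraries, lay between -0.65 (without neo replicate 1) and 4.91, the transcript Bglap-202 between -1.03 and 0.04 (without neo replicate 2; 0.02 without KO replicate 3), and Bglap2-201 between -0.95 and 0.09 (without KO replicate 3).

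The labels do not say that replicate numbers pair the samples. Same-numbered neo and KO libraries had correlations of deviations of -0.102, -0.0578 and 0.182 for replicates 1 to 3. Neo replicate 3 correlated best with KO replicate 3, whereas neo replicates 1 and 2 correlated best with other numbers. With so few libraries these values cannot decide whether any samples shared a litter or handling. With the replicate block 1 gene was called, no member was, 4 members were under an unadjusted p of 0.05 and their median was -1.50. Low counts of Bglap2 (18 to 128 per library) and of Mepe, Sost and Fgf23 limit what can be seen of these genes, and the single WT library has no replicate.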
